A study of Mus musculus with 11 samples.

Results

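Ribosome biogenesis is the assembly of ribosomes in the nucleolus, and this account covers a set of 50 mouse genes that act in it, read out in whole pancreas after caerulein or sodium chloride (NaCl). The set was named gene by gene for its function, with earlier results of these arrays known. A gene was measured by a probe set, the group of array probes designed for it, that carries this gene's symbol alone in the platform annotation. Where a gene had several such probe sets, the one with the highest mean over all 11 arrays was taken. This gave values for 49 of the 50 genes, among 19938 genes measured in the same way. Noc2l was not analysed here. The 49 genes are called the members below. They were divided by role into 6 RNA polymerase I genes, 9 genes of small nucleolar ribonucleoproteins (snoRNPs), 18 small-subunit factors, 12 large-subunit factors and 4 nucleolar proteins that act at several steps.

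RNA polymerase I transcribes the ribosomal DNA repeats into a long precursor RNA in the nucleolus. The snoRNPs modify that precursor at chosen bases and help to cut it, and separate sets of assembly factors fold, trim and package it into the small and the large ribosomal subunit. The pathway is known to follow cell growth, and the acinar cell of the pancreas, which secretes large amounts of digestive enzymes, is rich in ribosomes.

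The treated group consisted of 6 pancreas samples from wild-type C57Bl6J mice, taken after caerulein. Caerulein is a cholecystokinin-like peptide whose overdose overstimulates acinar cells and is used to produce experimental acute pancreatitis. The series record gives 9 hourly intraperitoneal injections at 50 mg/kg, as written there (the unit could not be checked). The control group held 5 pancreas samples of the same wild-type strain after NaCl (the series text counts 4 control mice, while 5 titles name NaCl). The labels and series text used here state no age, no sex and no interval between the last injection and collection. They also leave it unsaid whether every sample came from its own mouse, so the p-values rest on sample-to-sample spread that may be technical. The comparison asks which transcripts differ between caerulein and NaCl pancreas.

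In caerulein pancreas nearly the whole set was higher, with 47 of 49 members past the threshold, against 20.3% of all measured genes. This holds for the values as deposited. With an equal mean of a list of reference genes, 21 members were higher and 9 lower. Of all 19938 genes, 1189 were then higher and 17237 lower, which is the background for every count under that scaling below. The threshold was an adjusted p under 0.05 in limma, a linear model fitted to all probe sets at once. One member was lower, the snoRNP gene Nop10, against 34.3% of all genes. The other member, Nolc1, did not pass. Differences are caerulein minus NaCl on the log2 scale, on which 1 unit is a 2-fold change. The median difference was 0.92 over the members and -0.13 over all genes. At least 2-fold higher were 21 members, against 6.14% of all genes. For 44 members the lowest caerulein array exceeded the highest NaCl array, against 16.7% of all genes, and for 0 members the opposite held, against 20.6%.

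**Figure D1:**
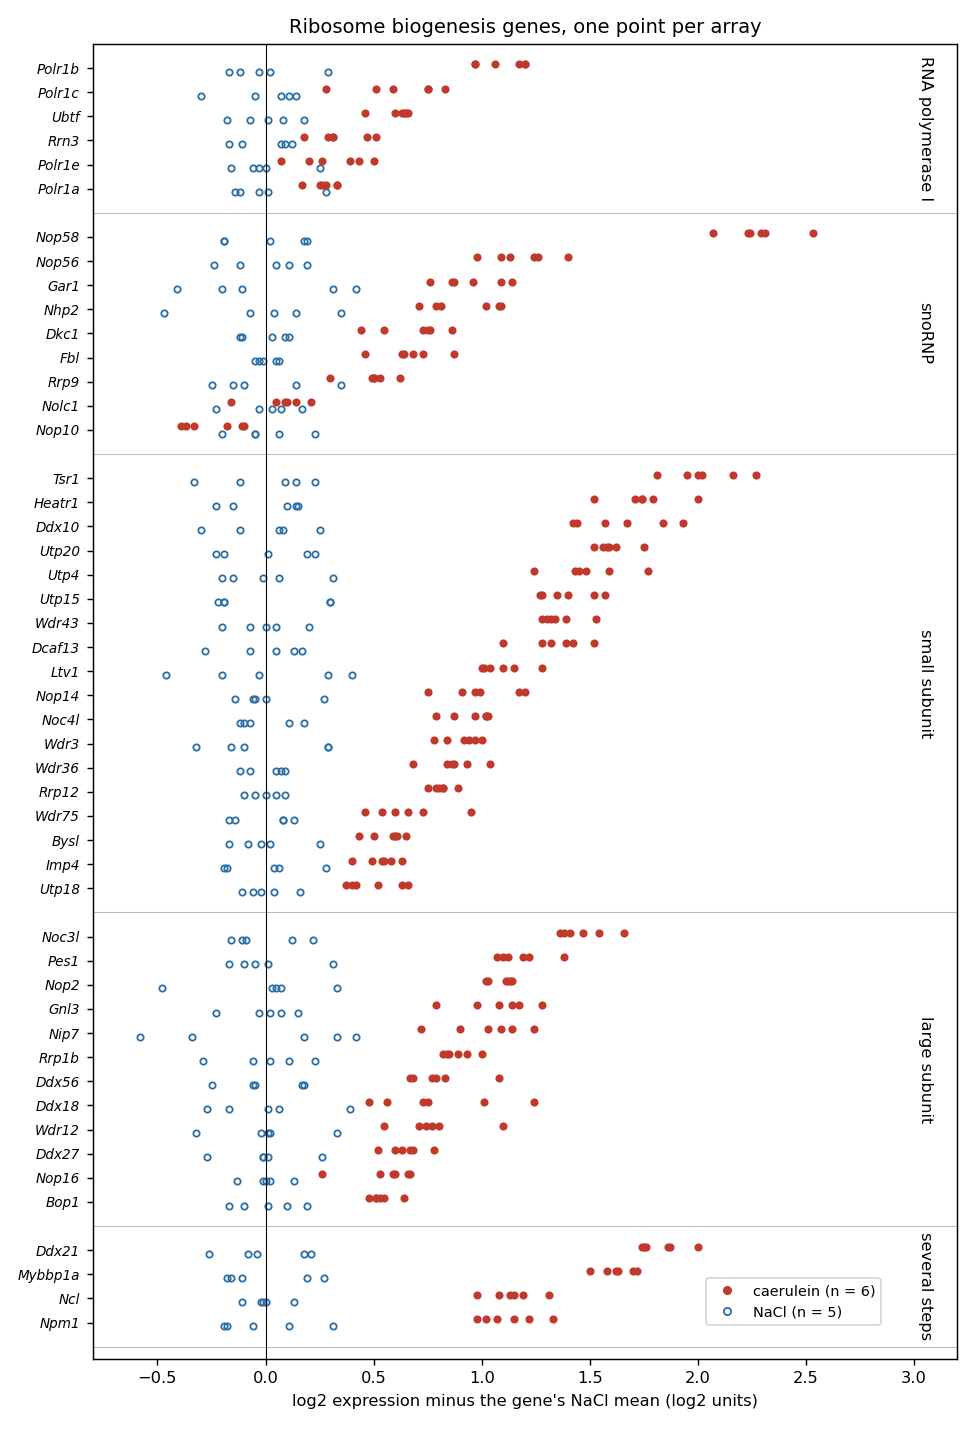
Each point is 1 array, placed by its log2 expression minus the gene's NaCl mean (log2 units), with filled red points for the 6 caerulein arrays and open blue points for the 5 NaCl arrays, and genes grouped by role. As deposited, the caerulein points lie right of all NaCl points for 44 of the 49 members and furthest right for Nop58 (difference 2.27), while Nop10 lies to the left (-0.25); with an equal mean of reference genes 17 members would have a difference below 0.

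The size of these differences depended on how the arrays were put on one scale. The median of all probe sets was 5.20 to 5.25 per array in caerulein and 5.35 to 5.40 in NaCl pancreas. The arrays were rescaled in several ways, 1 of them setting the mean of 12 commonly used reference genes equal on every array. They were Actb, B2m, Gusb, Hprt, Pgk1, Polr2a, Ppia, Rplp0, Sdha, Tbp, Tfrc and Ywhaz. Of these 12 reference genes 7 were themselves higher as deposited and 0 lower, with a median difference of 0.38. The largest rises, named after the values were seen, were those of the cytoskeletal actin gene Actb (7.64-fold), Ywhaz (3.67-fold) and Pgk1 (3.15-fold). The mean of the list thus leans on these genes. Polr2a is also an RNA polymerase II subunit and Rplp0 a ribosomal protein gene. That scaling moved the median of all genes to -0.89 and the median of the members to 0.16. The members' median then lay 1.05 above that of all genes, as in the deposited values. This distance was fixed in advance, since the scaling adds 1 constant to all values of an array. The same holds for equal 75th percentiles, where the distance was again 1.05. Cyclic loess and a second quantile normalisation can change it, and there it was 0.92 and 0.88. In each of these 5 scalings, the deposited values included, 47 or 48 of the 49 members lay above the median of all genes. That count, too, cannot change where 1 constant is added per array.

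**Figure D2:**
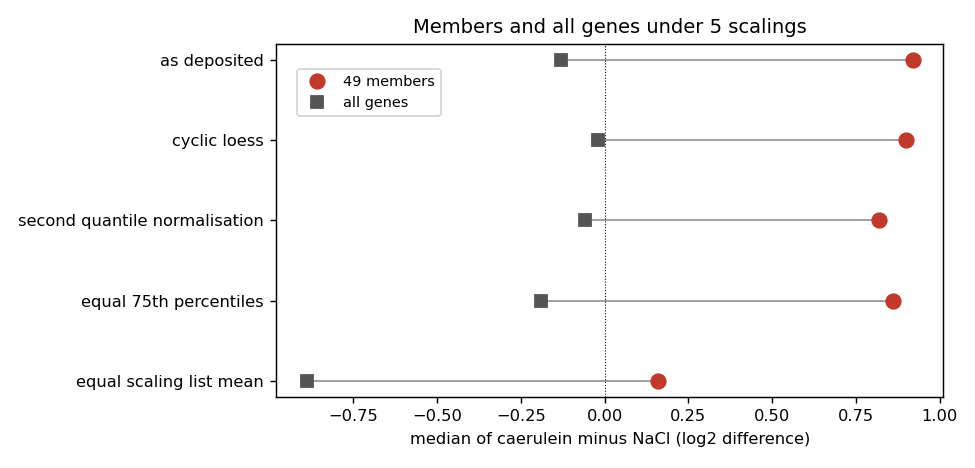
The median log2 difference (caerulein minus NaCl) of the 49 members (red circles) and of all 19938 genes (grey squares) is plotted under 5 scalings. Both medians move left together with an equal mean of the reference genes (0.16 for the members and -0.89 for all genes), and the distance between them stays between 0.88 and 1.05.

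The pancreas samples are mixtures of cells, in which fewer cells of a type and less RNA per cell cannot be told apart. The mean over 9 acinar markers was 12.83 to 12.95 per caerulein array and 13.05 to 13.19 per NaCl array, with 1 marker higher and 1 lower (0 higher and 8 lower with an equal mean of reference genes). The median difference of the acinar markers was -0.07, with a range of -2.0 to 0.55. For 5 of the 9 every caerulein array lay below every NaCl array, against 20.6% of all genes, and for 0 the opposite held. The mean over 10 macrophage and monocyte markers was 6.39 to 7.25 in caerulein and 5.77 to 5.89 in NaCl pancreas, with 6 higher and 0 lower (4 and 5 with an equal mean of reference genes). The mean over 7 duct markers was 7.87 to 8.11 in caerulein and 6.81 to 6.99 in NaCl pancreas, with 4 higher and 2 lower (3 and 3 with an equal mean of reference genes). The median difference of the duct markers was 0.44, with a range of -1.14 to 4.39. The mean over 9 stellate-cell and fibroblast markers was 7.22 to 7.90 in caerulein and 7.06 to 7.35 in NaCl pancreas, with 4 higher and 0 lower (0 and 5). The part of these cells in the members' differences was not tested. Caerulein replicate 2 had the lowest macrophage mean of its group, 6.39, which was still above every NaCl array (5.77 to 5.89). On that array the members stood 0.93 above the NaCl mean, beside 0.91 to 1.05 over the 6 caerulein arrays. Of 19 genes of the cell division cycle 3 were higher and 8 lower (median -0.19, and 1 and 16 with an equal mean of reference genes). Beside these counts, 20.3% of all genes were higher and 34.3% lower as deposited. With an equal mean of reference genes, 1189 of all 19938 genes were higher and 17237 lower.

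All 6 RNA polymerase I genes rose as deposited, with a median difference of 0.47 and a range of 0.27 to 1.10, while with an equal mean of reference genes 1 was higher and 3 were lower. Polr1b, the second-largest subunit and part of the catalytic centre, changed the most. Its log2 expression was 7.93 on the lowest, 8.08 at the median and 8.16 on the highest caerulein array, against 7.25, 6.79, 6.98, 6.84 and 6.93 on the NaCl arrays. The groups did not overlap, and Polr1b was 2.14-fold higher (difference 1.10, SE 0.09, limma adjusted p = 6.36e-07). Polr1a, the largest subunit and its partner in the catalytic centre, changed the least of the 6. Polr1a had 6.43, 6.53 and 6.59 as the lowest, median and highest caerulein value, against 6.27, 6.54, 6.12, 6.23 and 6.14 in NaCl pancreas. Here 1 NaCl array, replicate 2, reached into the caerulein range, and the difference was 0.27 (SE 0.08, limma adjusted p = 0.0137), or -0.48 with an equal mean of reference genes.

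Polr1c, a subunit that RNA polymerase I shares with RNA polymerase III, ran from 7.16 over a median of 7.55 to 7.71 in caerulein pancreas, against 7.02, 6.99, 6.58, 6.95 and 6.83 in NaCl pancreas. The 2 ranges came close without overlapping, and the gene was 1.54-fold higher (limma adjusted p = 5.89e-04). Ubtf encodes the factor that binds along active ribosomal DNA and bends it. It had 8.29, 8.47 and 8.49 as lowest, median and highest caerulein value, against 7.84, 8.01, 7.76, 7.65 and 7.91 in NaCl pancreas, 1.52-fold higher without overlap. Rrn3, which brings the polymerase to the initiation complex, was 1.27-fold higher (limma adjusted p = 0.00427), but after a second quantile normalisation its difference of 0.12 no longer passed (adjusted p = 0.233). Polr1e, a peripheral subunit, was 1.24-fold higher with overlapping arrays (limma adjusted p = 0.0194), and its difference was -0.45 with an equal mean of reference genes.

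The snoRNP genes were the least uniform role. Of 9 genes 7 rose, 1 fell and 1 did not pass as deposited, with a median of 0.68, and with an equal mean of reference genes 2 were higher and 3 lower. Box C/D snoRNPs carry out methylation of ribose in the precursor RNA, and the 3 genes of their core proteins in the set rose as deposited (2 higher and 0 lower with an equal mean of reference genes). Nop58, a core scaffold protein of these particles, had the largest difference of all 49 members. Its log2 expression was 8.28, 8.47 and 8.74 on the lowest, median and highest caerulein array, against 6.39, 6.23, 6.40, 6.02 and 6.02 on the NaCl arrays. The lowest caerulein array thus stood well above the highest NaCl array, and Nop58 was 4.84-fold higher (difference 2.27, SE 0.10, limma adjusted p = 2.36e-09). Nop56, its partner in the scaffold, had 8.79, 8.99 and 9.21 in caerulein pancreas, against 8.0, 7.92, 7.86, 7.57 and 7.69 in NaCl pancreas. Nop56 was 2.27-fold higher without overlap (limma adjusted p = 6.20e-07). Fbl, the methyltransferase fibrillarin, was 1.58-fold higher by the probe set used here. A second Fbl probe set gave a difference of 0.07 (limma adjusted p = 0.573), so the measurements of this gene disagree.

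Box H/ACA snoRNPs convert uridine to pseudouridine, and of their 4 core genes 3 rose and 1 fell as deposited (0 higher and 1 lower with an equal mean of reference genes). Gar1 ran from 8.06 over 8.21 to 8.44 in caerulein pancreas, against 6.89, 7.10, 7.61, 7.72 and 7.19 in NaCl pancreas. The NaCl values spread widely (SD 0.35, n = 5, against 0.14, n = 6, in caerulein) but stayed below, and Gar1 was 1.92-fold higher (limma adjusted p = 1.54e-04). Nhp2, an RNA-binding core protein, was 1.89-fold higher, and Dkc1, the pseudouridine synthase dyskerin, 1.60-fold higher. Nop10, the small protein that sits against dyskerin, went the other way. Nop10 had 7.12, 7.25 and 7.41 as the lowest, median and highest caerulein value, against 7.74, 7.57, 7.46, 7.31 and 7.46 in NaCl pancreas. The groups overlapped through NaCl replicate 4, and the difference was -0.25 (SE 0.09, limma adjusted p = 0.0390). That call ended without any 1 of NaCl replicates 1, 2, 3 and 5 or caerulein replicates 3, 4 and 5, where the difference was -0.19 to -0.26 and the adjusted p 0.0544 to 0.0949.

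Nolc1, a chaperone that binds snoRNPs in the nucleolus, was the member closest to 0. It had 6.89, 7.15 and 7.26 in caerulein pancreas and 7.02, 7.12, 7.08, 7.22 and 6.82 in NaCl pancreas, fully interleaved, with a difference of 0.07 (SE 0.09, limma adjusted p = 0.541). After rescaling by cyclic loess the difference was -0.01. Rrp9, a protein of the U3 snoRNP that starts small-subunit processing, was 1.41-fold higher with overlapping arrays (limma adjusted p = 0.00211), and its difference was -0.26 with an equal mean of reference genes.

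All 18 small-subunit factors rose as deposited, with a median of 1.04 and a range of 0.50 to 2.03, and for all 18 the groups did not overlap. With an equal mean of reference genes 10 were higher and 2 lower. Tsr1, a GTPase-like factor of late small-subunit precursors, led the role. Its log2 expression was 8.80, 9.00 and 9.26 on the lowest, median and highest caerulein array, against 7.08, 6.87, 7.22, 7.13 and 6.66 on the NaCl arrays. Tsr1 was 4.09-fold higher (difference 2.03, SE 0.11, limma adjusted p = 1.67e-08).

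Heatr1 belongs to the group of early factors that bind the nascent precursor RNA and are also needed for its transcription. It had 7.90, 8.12 and 8.38 in caerulein pancreas, against 6.52, 6.53, 6.15, 6.23 and 6.48 in NaCl pancreas, 3.36-fold higher (limma adjusted p = 2.17e-08). The other genes of that early group were 2.82-fold (Utp4), 2.64-fold (Utp15), 2.58-fold (Wdr43) and 1.58-fold (Wdr75) higher, so that all 5 rose as deposited, and 4 of 5 were also higher with an equal mean of reference genes. A second early module, which works beside the U3 snoRNP, had smaller differences, with Wdr3 1.88-fold, Wdr36 1.82-fold and Utp18 1.41-fold higher (0 higher and 1 lower with an equal mean of reference genes). The difference between the 2 modules was not tested. Utp18 had the smallest difference of the role, with 6.67, 6.77 and 6.96 in caerulein pancreas, against 6.46, 6.19, 6.24, 6.28 and 6.34 in NaCl pancreas. Even there the ranges did not meet (difference 0.50, SE 0.08, limma adjusted p = 1.84e-04).

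Ddx10, an RNA helicase whose yeast relative releases a snoRNA from the precursor, ran from 6.75 over 6.95 to 7.26 in caerulein pancreas, against 5.21, 5.39, 5.03, 5.41 and 5.58 in NaCl pancreas. The gap between the groups exceeded the range within either, and Ddx10 was 3.14-fold higher (limma adjusted p = 1.99e-07). Utp20, a very long scaffold protein, was 3.03-fold higher, and Dcaf13 2.53-fold higher. Nop14 and its binding partner Noc4l were 1.99-fold and 1.93-fold higher, nearly the same size. Among factors of the later precursor, Ltv1 was 2.14-fold and Bysl 1.48-fold higher. Rrp12, which in yeast takes part in export of the precursors, was 1.76-fold higher, and Imp4, a U3-associated protein, 1.44-fold higher. With an equal mean of reference genes, Wdr75, Utp18, Bysl and Imp4 had differences below 0.

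The 12 measured large-subunit factors all rose as deposited, with a median of 0.85 and a range of 0.53 to 1.47, again with no overlap for any of them, while with an equal mean of reference genes 4 were higher and 1 lower. Noc3l, a protein of early large-subunit precursors, changed the most. It had 7.04, 7.12 and 7.34 on the lowest, median and highest caerulein array, against 5.90, 5.59, 5.80, 5.52 and 5.57 on the NaCl arrays, and was 2.77-fold higher (difference 1.47, SE 0.09, limma adjusted p = 3.21e-08).

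Pes1, Bop1 and Wdr12 encode the 3 subunits of the PeBoW complex, which is needed for processing of the large-subunit RNA. Pes1 had 8.05, 8.14 and 8.36 in caerulein pancreas, against 7.29, 6.93, 6.81, 6.88 and 6.99 in NaCl pancreas, 2.27-fold higher (limma adjusted p = 3.73e-07). Bop1 had the smallest difference of the role, with 7.71, 7.75 and 7.87 in caerulein pancreas, against 7.42, 7.33, 7.13, 7.24 and 7.06 in NaCl pancreas. Bop1 was 1.45-fold higher without overlap (limma adjusted p = 7.16e-05), although its difference was -0.22 with an equal mean of reference genes, and Wdr12 was 1.71-fold higher. The 3 partners of 1 complex therefore differed in size from 0.53 to 1.18, and their mutual differences were not tested.

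Nop2, which methylates cytosine in large-subunit RNA, showed a tight caerulein group beside a loose NaCl group. Its values were 7.88, 7.97 and 8.0 in caerulein pancreas, against 7.19, 6.38, 6.89, 6.91 and 6.93 in NaCl pancreas (SD 0.05, n = 6, and 0.30, n = 5), 2.13-fold higher (limma adjusted p = 6.34e-06). Gnl3, the nucleolar GTPase nucleostemin, was 2.11-fold higher, and Nip7, a small RNA-binding factor, 2.03-fold higher. The helicases Ddx56, Ddx18 and Ddx27 were 1.75-fold, 1.74-fold and 1.57-fold higher. A second probe set for Ddx18 gave a difference of 1.06, beside 0.80 for the one used, and a second one for Wdr12 gave 0.75, beside 0.78. Rrp1b was 1.85-fold and Nop16 1.47-fold higher. With an equal mean of reference genes, Nop16, Bop1 and Ddx27 had differences below 0.

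The 4 nucleolar proteins that act at several steps rose under every scaling tried, with a median of 1.38 as deposited. Ddx21, a helicase that acts in polymerase I transcription and in snoRNA binding, had 8.83, 8.90 and 9.09 in caerulein pancreas, against 7.30, 7.01, 7.27, 7.05 and 6.83 in NaCl pancreas. That made Ddx21 3.55-fold higher (difference 1.83, SE 0.09, limma adjusted p = 7.65e-09), the third-ranked difference of the set after Nop58 and Tsr1. Mybbp1a, which takes part in transcription and processing of the precursor, had 8.44, 8.57 and 8.66 in caerulein pancreas, against 7.21, 7.13, 6.83, 6.78 and 6.76 in NaCl pancreas. The groups lay far apart, and Mybbp1a was 3.08-fold higher (limma adjusted p = 2.41e-08).

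Ncl encodes nucleolin, an abundant protein that binds both ribosomal DNA chromatin and precursor RNA. Its values were 9.05, 9.21 and 9.38 in caerulein pancreas, against 8.05, 7.96, 8.07, 8.20 and 8.06 in NaCl pancreas, 2.21-fold higher (limma adjusted p = 5.32e-08). Npm1 encodes nucleophosmin, the histone-binding scaffold of the outer nucleolus. It ran from 9.07 over 9.20 to 9.42 in caerulein pancreas, against 7.90, 7.91, 8.03, 8.20 and 8.40 in NaCl pancreas, 2.19-fold higher without overlap (limma adjusted p = 1.44e-06). Of Npm1, 3 further probe sets carry other symbols as well and were not used.

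The order of the roles was the same on every caerulein array. On all 6, the role means ran downwards from the proteins that act at several steps over small-subunit, large-subunit and snoRNP genes to RNA polymerase I, an order described without a test. Averaged over the 49 members, the caerulein arrays stood 0.91 to 1.05 above the NaCl mean, and the NaCl arrays between -0.05 and 0.13 of it. Caerulein replicate 6 had the highest mean, and it had the highest value of its group for 22 of the 49 members. It also had the highest mean of the macrophage markers, 7.25, and the part of those cells was not tested. In the NaCl group, replicate 1 had the highest value for 26 of 49 members, and without it the number of members higher was again 47. The spread within groups was narrower in caerulein than in NaCl pancreas for 37 of 49 members (75.5%), with median SDs of 0.126 and 0.181, beside 55.2% of all genes and median SDs of 0.130 and 0.141. This is a description of these arrays, with no test.

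**Figure D3:**
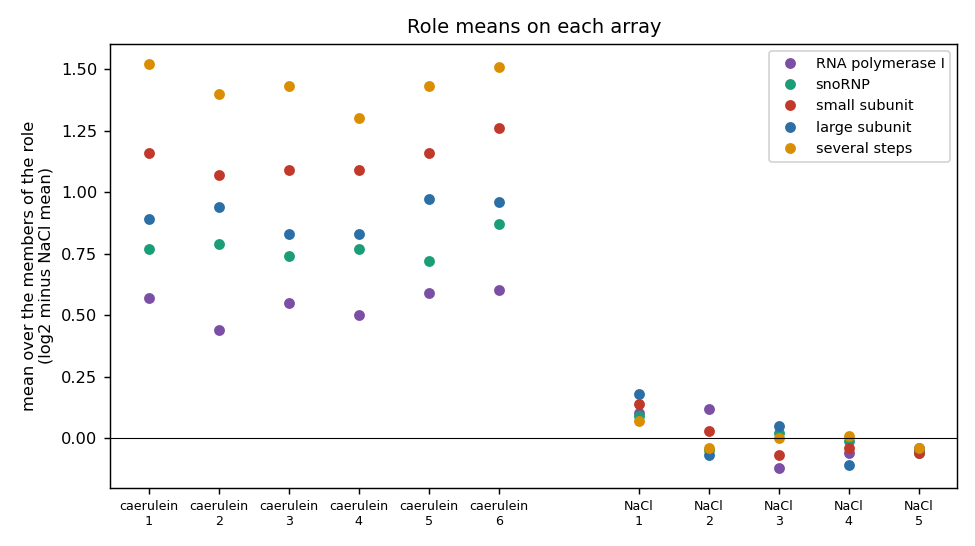
Each point is the mean over the members of 1 role on 1 array, as log2 expression minus the NaCl mean, with the 6 caerulein arrays on the left and the 5 NaCl arrays on the right. As deposited, all role means of the caerulein arrays lie at or above 0.44 and those of the NaCl arrays at or below 0.18, and the order of roles is the same on all 6 caerulein arrays; with an equal mean of reference genes 3 of the 6 RNA polymerase I genes were lower.

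Other genes of the same pathway were counted from a list of 95 measured genes, of which 77 were higher and 4 lower as deposited, with a median of 0.61, against 23 higher and 38 lower with an equal mean of reference genes. The 42 further large-subunit factors included 39 that rose and 0 that fell as deposited (15 and 13 with an equal mean of reference genes). The largest rises there were those of Sbds, which helps to release an anti-association factor from new large subunits, at 4.59-fold, of the GTPase gene Gtpbp4 at 4.28-fold, and of the polynucleotide kinase gene Nol9 at 3.02-fold. Among 32 further small-subunit factors 25 rose and 1 fell (5 and 13 with an equal mean of reference genes). Pno1, Nol10 and Rcl1 were 3.34-fold, 2.57-fold and 2.43-fold higher. The exception was Imp3, a U3-associated protein that works with Imp4, with a difference of -0.37 (limma adjusted p = 0.0103).

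Of 9 further polymerase I genes, 6 rose and 0 fell as deposited (2 and 5 with an equal mean of reference genes), led by Polr1d, the partner of Polr1c, at 2.05-fold, then Taf1a at 2.02-fold and Twistnb at 1.58-fold. The RNA exosome, the nuclease complex that trims precursor ends, was divided, with 7 of 12 genes higher and 3 lower (1 and 7 with an equal mean of reference genes). Its nuclease gene Dis3 was 2.64-fold higher, Exosc9 1.92-fold and Exosc1 1.74-fold. C1d and Exosc5 each had a difference of -0.33 and Exosc4 one of -0.21. A second quantile normalisation ended the call of C1d (limma adjusted p = 0.0618) and of Exosc4 (limma adjusted p = 0.352), and cyclic loess ended both as well, with differences of -0.17 (adjusted p = 0.119) and -0.06 (adjusted p = 0.607). The call of Exosc4 also ended without any 1 of NaCl replicates 2 to 5 or caerulein replicates 2 to 6 (adjusted p 0.0560 to 0.107).

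The neighbouring machines differed from this picture in their values, and no test was made between lists. Over all genes, 20.3% were higher and 34.3% lower as deposited. Of 55 measured genes for cytosolic ribosomal proteins, the parts of the ribosome itself, 13 rose (23.6%) and 0 fell as deposited, and the median was 0.08. Quantile normalisation a second time made these counts 3 and 25, beside 3844 and 4671 of all 19938 genes. With an equal mean of reference genes the counts were 0 and 53, beside 1189 and 17237 of all genes. The largest rise there was that of Rps20, 1.44-fold. Many ribosomal protein genes have near-identical copies, which their probes may not separate. Of 12 RNA polymerase II subunits 2 rose and 1 fell, the median being 0.05 (0 and 12 with an equal mean of reference genes). The largest subunit gene Polr2a was 1.29-fold higher (-0.39 with an equal mean of reference genes). Quantile normalisation a second time gave it a difference of 0.16 that did not pass (limma adjusted p = 0.103). Polr2j had a difference of -0.31, a call that ended without NaCl replicate 3 (difference -0.26, adjusted p = 0.0502). RNA polymerase III had 4 of 9 subunits higher and 2 lower, the median being -0.06 (1 and 7 with an equal mean of reference genes). Polr3e was 2.30-fold higher and Polr3k had a difference of -1.47. In the cell division list Mcm6, a subunit of the replicative helicase, was 3.15-fold higher, and the thymidylate synthase gene Tyms had a difference of -0.61.

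**Figure D4:**
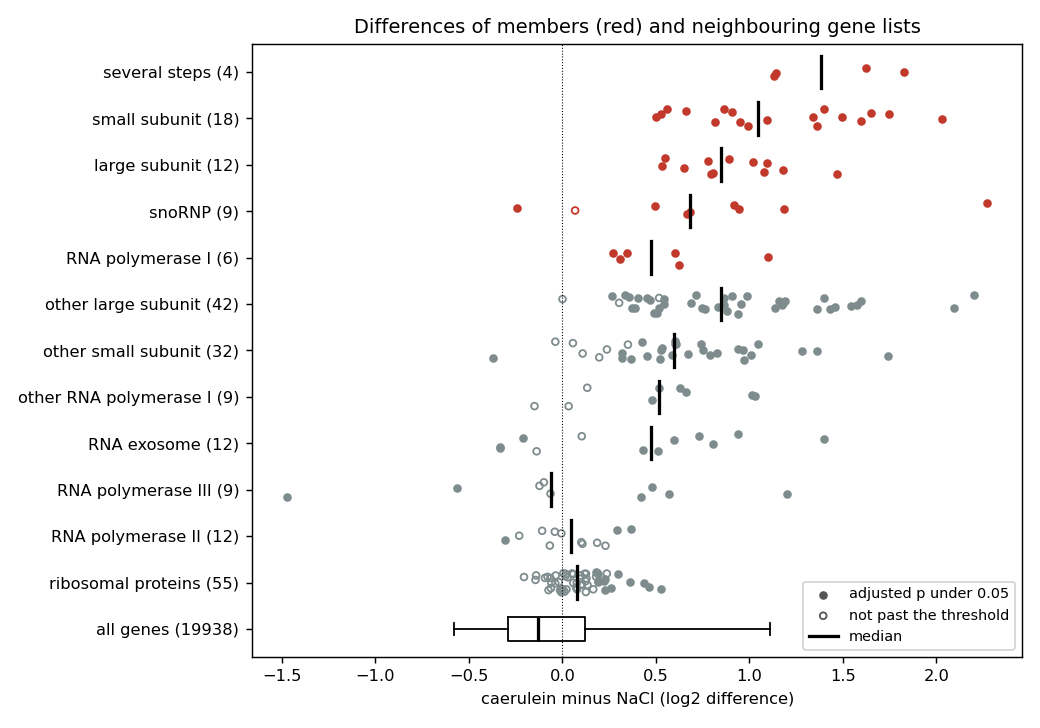
Each point is the log2 difference (caerulein minus NaCl) of 1 gene as deposited, filled where the adjusted p was under 0.05, with the members by role in red, neighbouring lists in grey, the median as a black bar, and a box for all genes (quartiles, with whiskers at the 5th and 95th percentiles). The role medians lie between 0.47 and 1.38, while ribosomal proteins, RNA polymerase II and RNA polymerase III lie at 0.08, 0.05 and -0.06; with an equal mean of reference genes the median of all genes shifts to -0.89 and that of the members to 0.16.

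The promoters were examined for features that the choice of genes did not use. RefSeq windows of 250 bases before to 50 bases after an annotated start (assembly GRCm38.p6) were matched by symbol for 43 of the 49 members, in 51 windows. The motif CACGTG, which reads the same on both strands and is known as the binding sequence of the MYC-MAX family of growth regulators, was present in 11 of 51 member windows (21.6%), against 7.15% of all 32851 windows. The motif CCGGAAG, a core site of ETS factors, was present on either strand in 33.3% of member windows, against 8.86% of all windows. The motif TATAAA, searched on both strands, was present in 3.92%, against 13.6%. Member windows were also richer in CpG, with a median of 23 CpG per window against 7 in all windows, and a median GC content of 59.3% against 52.7%, and CACGTG and CCGGAAG both contain CpG. The 92 windows of the other ribosome biogenesis genes held CACGTG in 17.4% and CCGGAAG in 39.1%, with a median of 21 CpG. Windows of the ribosomal protein genes held CACGTG in 13.7% and CCGGAAG in 35.3%, with a median of 21 CpG. A match is a description of the letters and not evidence of binding.

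The members with CACGTG were Imp4, Ltv1, Mybbp1a, Nop2, Pes1, Rrn3, Tsr1, Utp18, Utp20, Utp4 and Wdr43, and their differences had a median of 1.18 and a range of 0.35 to 2.03. The 32 members with a window but without the motif had a median of 0.90 and a range of -0.25 to 2.27, so the 2 ranges overlapped over most of their length. By role, the motif stood in 7 of 15 small-subunit, 2 of 14 large-subunit and 1 of 11 RNA polymerase I windows. It stood in 1 of 3 windows of proteins acting at several steps and 0 of 8 snoRNP windows. The 2 medians therefore cover different mixes of roles. To show what such a promoter looks like, the window of the most changed member with the motif is given below for each role that has one, from RefSeq, in the direction of transcription, with CACGTG in capitals. None of the 8 snoRNP genes with a window had the motif in it, Nop58 included, and the Fbl promoter was not analysed here.
Rrn3 (chr16:13780449-13780748, plus strand): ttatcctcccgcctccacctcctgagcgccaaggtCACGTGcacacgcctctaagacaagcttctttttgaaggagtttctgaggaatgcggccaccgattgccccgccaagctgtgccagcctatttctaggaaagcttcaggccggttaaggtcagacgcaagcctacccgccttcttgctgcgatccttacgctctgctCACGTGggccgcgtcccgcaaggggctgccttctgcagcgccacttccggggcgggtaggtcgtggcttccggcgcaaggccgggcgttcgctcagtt
Tsr1 (chr11:74897830-74898129, plus strand): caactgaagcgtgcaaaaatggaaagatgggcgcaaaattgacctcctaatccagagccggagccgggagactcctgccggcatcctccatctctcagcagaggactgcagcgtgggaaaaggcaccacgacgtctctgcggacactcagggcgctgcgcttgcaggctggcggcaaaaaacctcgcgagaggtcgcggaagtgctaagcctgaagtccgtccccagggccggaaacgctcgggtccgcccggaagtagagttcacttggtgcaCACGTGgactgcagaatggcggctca
Pes1 (chr11:3963725-3964024, plus strand): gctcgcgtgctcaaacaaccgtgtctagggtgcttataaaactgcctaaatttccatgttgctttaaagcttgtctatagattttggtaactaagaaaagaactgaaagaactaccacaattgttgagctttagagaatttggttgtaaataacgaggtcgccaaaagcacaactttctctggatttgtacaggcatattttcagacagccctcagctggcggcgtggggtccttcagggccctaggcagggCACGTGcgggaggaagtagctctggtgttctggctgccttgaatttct
Mybbp1a (chr11:72441077-72441376, plus strand): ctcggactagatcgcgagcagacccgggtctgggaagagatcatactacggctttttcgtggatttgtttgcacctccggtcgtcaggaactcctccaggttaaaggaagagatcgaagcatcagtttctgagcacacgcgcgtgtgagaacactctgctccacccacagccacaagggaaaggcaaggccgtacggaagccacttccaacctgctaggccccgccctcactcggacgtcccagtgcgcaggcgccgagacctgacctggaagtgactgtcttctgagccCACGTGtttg
In Rrn3 the motif occurs 2 times, beginning at -215 and -48, counted with the first base of the annotated transcript as 0. In Tsr1, Pes1 and Mybbp1a it begins at 24, 2 and 40. The 4 genes differ in the size of their rise as deposited, from 1.27-fold for Rrn3 to 4.09-fold for Tsr1, and with an equal mean of reference genes Rrn3 had a difference of -0.41.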

How the data were processed

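Affymetrix arrays were hybridised with biotin-labelled total RNA of whole pancreas, 1 array per sample, and degraded RNA was excluded, per the labels' protocols. Values are on the log2 scale as deposited, and RMA and the R packages oligo and limma are named, per the submitters' processing notes, without versions. The 11 arrays held 35556 probe sets with no missing value, and no 2 arrays were identical. RMA can compress changes at both ends of its range, no detection calls were available for use here, and levels were not compared between genes. Precision is limited by how few arrays there are.

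A single gene symbol stood beside 21789 probe sets, several beside 1621 and none beside 12146. All 49 measured members matched a RefSeq gene by Entrez identifier. The groups were compared, caerulein minus NaCl, by a two-sided test without covariates in R 4.3.3 with limma 3.58.1 (lmFit, then eBayes), with Benjamini-Hochberg adjustment over all probe sets. All adjusted p-values come from this fit unless an alternative is named. The code was tested on simulated data.

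The members, their roles and all lists were chosen with earlier results of these data known. Every member is named. Arrays are given for the 3 largest and the smallest difference of each role and for members that were lower or did not pass. Of the other pathway lists the 3 largest rises and falls past the threshold are named, and of the remaining lists the largest of each.

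Replicate numbers were not used as pairs. Alternatives were a trended robust prior, array weights, 4 rescalings, leaving out the dimmer 50 percent of probe sets, the mean of all probe sets of a gene, the replicate block and leaving out each array.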

Additional observations from a re-analysis of the deposited data

Results flagged for a closer look

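Within the groups, 144 sets of replicate values (72 named genes in 2 groups) were screened for a single array far from the others by Dixon's criterion, and chance alone marks about 1 in 20 sets. 3 values stood apart. Ubtf was 8.29 on caerulein replicate 4, below the nearest other caerulein array at 8.43. Nop16 was 7.54 on caerulein replicate 3, with the nearest at 7.81. Exosc5 was 7.93 on NaCl replicate 5, with the nearest at 7.62. Without the array in question, each of the 3 genes stayed past the threshold in the same direction.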

How the results depend on the processing

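The counts of members higher and lower changed with the scale of the arrays, while the sign of their median did not. With an equal mean of the reference genes, 21 members were called higher and 9 lower, and all genes gave 1189 higher and 17237 lower, against 4051 and 6839 as deposited. Why 7 of the 12 reference genes were higher was not tested. By role the counts higher and lower were then 1 and 3 for RNA polymerase I, 2 and 3 for snoRNPs, 10 and 2 for small-subunit factors, 4 and 1 for large-subunit factors, and 23 and 38 for the other pathway genes. That setting adds 1 constant to all values of an array and so lowers every gene's difference by the same amount. By this construction the members' median stayed 1.05 above that of all genes, and 32 of 49 members stayed above 0. The smaller differences fell below 0, for Polr1a (-0.48), Polr1c (-0.13), Polr1e (-0.45), Rrn3 (-0.41), Ubtf (-0.16), Fbl (-0.09), Dkc1 (-0.08), Nolc1 (-0.69), Rrp9 (-0.26), Wdr75 (-0.10), Utp18 (-0.26), Bysl (-0.20), Imp4 (-0.23), Nop16 (-0.21), Bop1 (-0.22), Ddx27 (-0.11), Twistnb (-0.09), Polr2a (-0.39) and Rps20 (-0.23). Nolc1 was also below 0 after cyclic loess (-0.01) and a second quantile normalisation (-0.13). The median of the members was still 0.16 with the reference genes, 0.86 with equal 75th percentiles and 0.82 after the second quantile normalisation. All genes called lower numbered 3636 after cyclic loess and 4492 without the dimmer 50 percent of probe sets, where fewer were tested. When each array was left out in turn, 47 members were higher every time, 0 to 1 were lower (the same for snoRNPs), and their median was 0.88 to 0.95. Of all genes, 3870 to 4011 were higher and 5989 to 6497 lower in those fits. Over all probe sets no pairing by replicate number was seen, with correlations of -0.0517 to 0.0597, and 2 of 5 NaCl samples matched their own number best. This check cannot exclude a pairing that touches only part of the probe sets. With the replicate block, which leaves out caerulein replicate 6, 46 members were higher, as were 5 RNA polymerase I genes, and all genes gave 3750 higher and 5477 lower. Of the named genes, Polr1e (0.28, adjusted p = 0.0913), Polr2j (-0.30, adjusted p = 0.0697) and Exosc4 (-0.18, adjusted p = 0.180) no longer passed with the block. The trended robust prior, the array weights and the mean of all probe sets of a gene changed the direction or the call of 0 of the 72 named genes. The array gives no read depth, and how far each member lies above its probes' background could not be read from the values used here.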

Other observations

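The snoRNP genes encode proteins, and the array also carries probe sets for the guide RNAs of these particles. This list was formed by symbol after the annotation had been seen and is described without a test. Among 51 snoRNA genes measured this way, 9 were higher and 4 lower, with a median difference of 0.04 as deposited, beside 20.3% higher and 34.3% lower over all genes and 47 of 49 members higher. The list was not counted under the other scalings. Some snoRNAs spread widely within groups, as did Snord15b, at 7.99 to 9.38 in caerulein and 8.44 to 9.47 in NaCl pancreas. Among 31 box C/D snoRNAs 4 were higher and 4 lower, and among 20 box H/ACA snoRNAs 5 were higher and 0 lower. The largest rise was that of Snord14e, 4.33-fold (limma adjusted p = 3.21e-06), followed by Snord95, 2.17-fold. Snord22 had a difference of -0.64 (limma adjusted p = 0.0131), at 6.57 to 7.78 in caerulein and 7.37 to 7.96 in NaCl pancreas. The groups overlapped through caerulein replicate 1 (7.78) alone, and the other caerulein arrays lay at 6.57 to 7.13. Most mammalian snoRNAs lie in introns of other genes, and whether these probe sets read the snoRNA or its host transcript was not tested.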
